A study of Mus musculus with 8 samples.

Results

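Antioxidant defence in the ageing mouse hippocampus was followed through 10 genes, chosen by symbol: Sod1, Sod2, Cat, Gpx1, Gpx4, Prdx6, Nqo1, Hmox1, Gclc and Txnip. All probes whose accession mapped to 1 of these symbols were taken, which gave 16 of the 39429 probes on the array, where 19751 genes had a named probe. Of the 10 genes, 6 had 1 probe, Cat, Hmox1 and Txnip had 2 each, and Prdx6 had 4. Transcripts were measured in the whole hand-dissected hippocampus of untreated wild type C57BL/6J mice. Young mice of 3 months (3M, 4 arrays) were compared with mice of 29 months (29M, 4 arrays). Both groups had the same strain, genotype and housing in the home cage, so that age was the labelled difference. Per the study's methods, the old mice had been bought as aged animals and kept for some further months, so that 29M stands for a span of ages. The sex of the mice was not given in the sources used here. The labels name 4 samples a group without saying that each was a mouse of its own, so the p-values below measure the spread between these samples.

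Oxygen metabolism in cells produces superoxide, which superoxide dismutases turn into hydrogen peroxide. Catalase, glutathione peroxidases and peroxiredoxins then remove the peroxide, the latter groups with electrons from glutathione, thioredoxin and ultimately NADPH. Many of these genes, Nqo1, Hmox1 and Gclc among them, are driven by the transcription factor Nrf2 (Nfe2l2) together with a small Maf protein at antioxidant response elements, while Keap1 holds Nrf2 back and Bach1 represses the same sites. The brain uses much oxygen and is rich in easily oxidised lipids, which is why the genes are often followed in ageing tissue.

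Each array carried 43020 spots that were not controls, of which 76.2% to 85.0% were well above background. The lowest share was in 3M-1, followed by 29M-4 (78.9%) and 29M-3 (80.6%), which lay on the same slide (slide 1). Of 39408 probes tested, 757 were called, with 478 higher and 279 lower in 29M. A call required a Benjamini-Hochberg adjusted p under 0.1 in limma, over all tested probes, together with a log2 difference of 0.5 or more between the ages (1.41-fold). Array 3M-1 (3M, replicate 1) stood apart on a number of probes named below. Without it 850 probes were higher and 536 lower, and for named genes whose value rests on it the value without it is given too. Array 3M-3 had the lowest marker scores for choroid plexus (-0.88) and ependyma (-0.91), cell types that border the dissected tissue. All 12 neuron markers were well above background on every array, and their score was between -0.05 and 0.14 in 3M and between -0.04 and 0.02 in 29M.

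None of the 16 probes of the 10 genes was called, in either direction, against a background of 1.92% of all tested probes. All 16 were well above background on all 8 arrays, so that no value is a bound, and none of the 16 was lost to a filter. At an unadjusted p under 0.05, which 16.3% of all probes reached, 4 of the 16 probes differed. At an adjusted p under 0.1 whatever the size of the change, there were 2 probes, with 1 for Hmox1 and 1 for Prdx6, beside 3.38% of all probes. The 3M and 29M arrays did not overlap for 3 of the 16 probes, beside 10.6% of all probes. Probes of the same gene are not independent. On the brightest probe of each gene, 1 of 10 genes had an unadjusted p under 0.05, beside 16.5% of all named genes. The groups did not overlap for 1 of the 10, beside 10.7% of all named genes. In 12 probes the log2 change was positive and in 4 it was negative. Changes ran from -0.16 to 0.36 with a median of 0.14, where the median over all probes was 0.001.

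**Figure D1:**
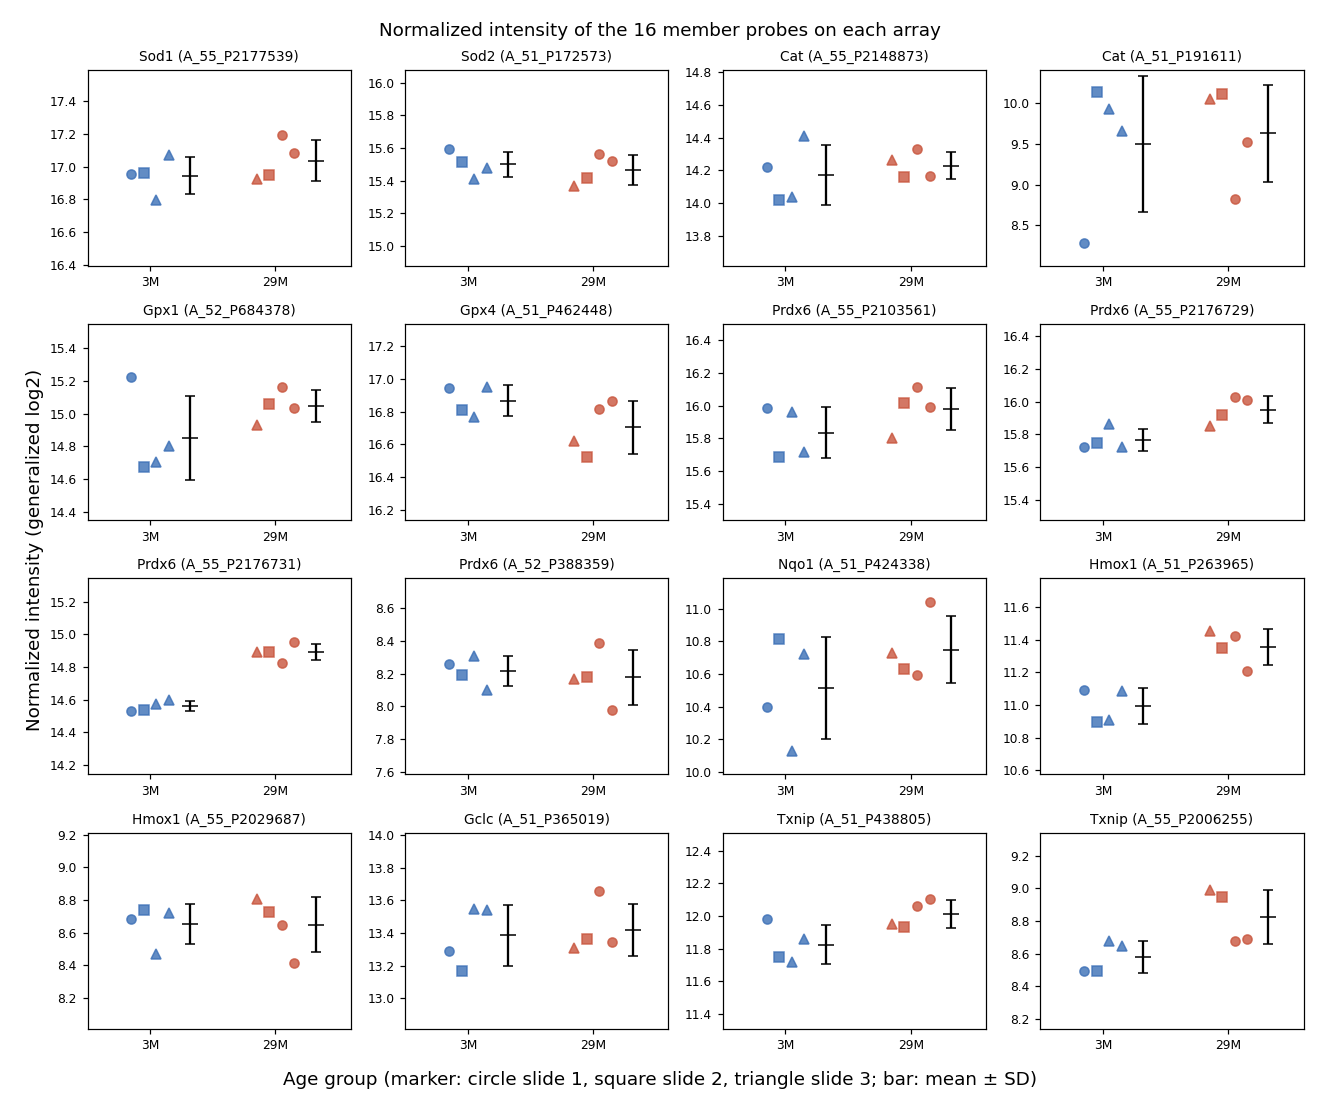
Normalized intensity (generalized log2) of the 16 probes on each of the 4 arrays of 3M (blue) and 29M (red), with 1 panel a probe and its own vertical range. Circles, squares and triangles mark slides 1, 2 and 3, and bars give mean ± SD. The groups stand apart for Prdx6 A_55_P2176731, Hmox1 A_51_P263965 and Txnip A_55_P2006255, while 3M-1 and 29M-3 lie below the other arrays for Cat A_51_P191611.

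The cytosolic superoxide dismutase Sod1, which uses copper and zinc, was almost level between the ages. The 250 bases before its RefSeq start and the 50 after it are shown for their match to the core of the antioxidant response element. It was the 1 match among the genes with a window at hand. The core was searched as TGACNNNGC on both strands, and capitals mark the match, which lies on the minus strand from base -56 to -48 counted from the start. The window is chr16:90220512-90220811, plus strand, GRCm38.p6.
Sod1: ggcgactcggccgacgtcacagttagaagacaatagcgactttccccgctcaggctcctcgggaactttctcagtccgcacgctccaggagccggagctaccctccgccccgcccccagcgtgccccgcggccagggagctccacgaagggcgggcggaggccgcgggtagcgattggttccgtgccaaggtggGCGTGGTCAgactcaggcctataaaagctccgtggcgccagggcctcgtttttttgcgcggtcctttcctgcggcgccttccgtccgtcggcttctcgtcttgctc
Windows were at hand for 7 of the 10 genes (10 windows, 4 of them of Gpx4). Prdx6, Hmox1 and Gclc had no window and were not searched, nor were bases farther from the start of any gene. Over all RefSeq genes 12.4% of 32851 such windows hold the core, and 14.0% of genes have it in a window. The match of 1 of 7 genes is thus near that share. A match is a string of letters and not a shown binding site.

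Normalized Sod1 intensities were 16.96, 16.96, 16.80 and 17.07 in 3M and 16.92, 16.95, 17.19 and 17.08 in 29M (log2 units). The groups overlapped, with the highest value in 29M-3 and the lowest in 3M-3. The log2 change was 0.09 ± 0.10 (SE) with a 95% interval from -0.12 to 0.30 (limma, adjusted p = 0.696). Within slide 1 the change was 0.18, and within slides 2 and 3 it was -0.0090 and -0.011. Sod2 encodes the manganese enzyme of mitochondria. Its values were 15.59, 15.51, 15.41 and 15.48 in 3M and 15.36, 15.41, 15.56 and 15.52 in 29M, ranges that nearly coincide. The change was -0.03 ± 0.08 (SE), with an interval from -0.22 to 0.15 (limma, adjusted p = 0.884). A change of 0.5 in either direction lies outside both intervals.

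Catalase, the peroxisomal enzyme that splits hydrogen peroxide without a partner, was read by 2 probes, and neither was called. The brighter one (A_55_P2148873) gave 14.22, 14.02, 14.03 and 14.41 in 3M and 14.26, 14.16, 14.33 and 14.16 in 29M. The 29M values all lay inside the range of 3M. The log2 change was 0.06 ± 0.10 (SE), with an interval from -0.18 to 0.29. The second probe (A_51_P191611) was the most variable of the 16. Its values were 8.28, 10.13, 9.93 and 9.65 in 3M and 10.05, 10.11, 8.82 and 9.52 in 29M. Arrays 3M-1 and 29M-3, both on slide 1, were low. Its change was 0.13 ± 0.41 (SE), with an interval from -0.78 to 1.04, and it was -0.28 without 3M-1. This probe leaves even a change of 0.5 undecided in either direction.

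Gpx1 encodes the most abundant glutathione peroxidase of the cytosol. Values were 15.22, 14.67, 14.70 and 14.80 in 3M and 14.93, 15.06, 15.17 and 15.03 in 29M. Array 3M-1 was higher than every 29M array and the other 3M arrays were lower than every one. The change was 0.20 ± 0.13 (SE, limma, adjusted p = 0.496), with -0.13 within slide 1, 0.39 within slide 2 and 0.18 within slide 3. Without 3M-1 it was 0.32 ± 0.09 (adjusted p = 0.0891), which passes the adjusted threshold but stays under the size asked for a call.

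Gpx4, which reduces lipid peroxides in membranes and so guards against ferroptosis, gave the most negative change of the 10 genes. Its values were 16.94, 16.81, 16.76 and 16.95 in 3M and 16.62, 16.52, 16.81 and 16.87 in 29M. Arrays 29M-1 and 29M-2 were the lowest, while 29M-3 and 29M-4 fell among the 3M arrays. The change was -0.16 ± 0.10 (SE), with an interval from -0.38 to 0.06 (limma, adjusted p = 0.476), and it was negative within all 3 slides (-0.10, -0.29 and -0.24). Without 29M-2 it was -0.0998. Gpx4 and Prdx6 have processed copies of near-identical sequence in the mouse genome, and whether a probe also caught these was not tested.

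Prdx6, a peroxiredoxin that uses glutathione and also acts as a phospholipase, is known in brain mainly from astrocytes. Its 4 probes gave changes of -0.04 to 0.33. The probe with the smallest SE of any member (A_55_P2176731) read 14.53, 14.54, 14.57 and 14.60 in 3M and 14.89, 14.89, 14.83 and 14.95 in 29M. The 4 old arrays all lay above the 4 young ones, with a gap wider than the range within either group. The change was 0.33 ± 0.07 (SE), or 1.26-fold, with an interval from 0.17 to 0.49 (limma, adjusted p = 0.0611). It was 0.36, 0.36 and 0.31 within slides 1, 2 and 3. The size was below 0.5, so that the probe was not called, and over 18 alternative settings the change stayed between 0.24 and 0.35 with adjusted p from 0.0176 to 0.204.

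The other 3 probes of Prdx6 differed less. A_55_P2176729 read 15.72, 15.74, 15.86 and 15.72 in 3M and 15.85, 15.92, 16.03 and 16.01 in 29M, a change of 0.19 ± 0.08 (SE, limma, adjusted p = 0.285). Only 3M-3 and 29M-1 crossed, by 0.01. For A_55_P2103561 the values overlapped widely, from 15.68 to 15.98 in 3M and from 15.80 to 16.11 in 29M, with a change of 0.15. The dim probe A_52_P388359 lay between 8.10 and 8.31 in 3M and between 7.98 and 8.39 in 29M (change -0.04). Whether probes of 1 gene differed in their response was tested on the per-array difference of the probes, over 9 probe pairs of Cat, Prdx6, Hmox1 and Txnip. With 4 against 4 arrays the smallest p an exact permutation test can give is 0.0286, and the smallest adjusted p over the 9 pairs was 0.129. In that test A_55_P2176729 exceeded the dim probe by 0.23 more in 29M than in 3M (exact permutation p = 0.0286, two-sided, adjusted p = 0.129). For A_55_P2176731 against the dim probe the difference was 0.37 (exact permutation p = 0.0571, adjusted p = 0.171). No pair passed the adjustment. Pairs at the smallest possible p still had an adjusted p of 0.129, so the test could not decide whether probes of a gene respond alike.

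Astrocyte markers are given here beside Prdx6. Of 10 markers, 1 (Gfap, the intermediate filament of astrocytes) was called higher, at 0.72 ± 0.12 on the log2 scale (SE, limma, adjusted p = 0.0226), and 6 changes were positive. A marker score was taken as the mean deviation of the markers from their own means over all arrays. For astrocytes it was between -0.13 and 0.04 in 3M and between 0.02 and 0.18 in 29M, and its part in the Prdx6 values was not tested. In tissue RNA, more cells of a type and more RNA per cell cannot be told apart. The study, which counted stained cells in the CA1 field of the hippocampus, reported no significant difference with age in neurons, astrocytes or microglia.

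Nqo1 encodes a quinone reductase and is a classical target of Nrf2. The values were 10.40, 10.81, 10.13 and 10.72 in 3M and 10.73, 10.63, 10.60 and 11.04 in 29M. The groups overlapped, although the highest array was old and the lowest pair was young. The change was 0.24 ± 0.16 (SE), with an interval from -0.12 to 0.59 (limma, adjusted p = 0.521). Within slides 1 and 3 it was 0.42 and 0.31, and within slide 2 it was -0.18. It was 0.11 without 3M-3 and 0.14 without 29M-4.

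Hmox1, the inducible haem oxygenase that breaks haem down to biliverdin, iron and carbon monoxide, had the largest change of the 16 probes. Probe A_51_P263965 read 11.09, 10.90, 10.91 and 11.08 in 3M and 11.45, 11.35, 11.42 and 11.21 in 29M. All old arrays were higher than all young ones, with 29M-4 the lowest of the old. The change was 0.36 ± 0.09 (SE), or 1.29-fold, with an interval from 0.16 to 0.57 (limma, adjusted p = 0.0921). It was 0.22, 0.45 and 0.46 within slides 1, 2 and 3. Since the size was below 0.5 the probe was not called. It was called under none of 18 alternative settings, in which the change lay between 0.33 and 0.41 and the adjusted p between 0.0202 and 0.239.

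The second Hmox1 probe gave a value near zero. A_55_P2029687 read 8.68, 8.74, 8.47 and 8.72 in 3M and 8.81, 8.73, 8.65 and 8.42 in 29M, with a change of -0.0028 ± 0.11 (SE) and an interval from -0.24 to 0.24. The first probe exceeded the second by 2.16 to 2.43 in 3M and by 2.62 to 2.79 in 29M, ranges that did not overlap. The difference was 0.36 (exact permutation p = 0.0286, two-sided, adjusted p = 0.129 over the 9 pairs). That p is the smallest the test can give with these arrays. Which parts of the transcript the probes read was not analysed here.

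Gclc is the catalytic subunit of glutamate-cysteine ligase, the step that limits glutathione synthesis. Values were 13.29, 13.17, 13.55 and 13.54 in 3M and 13.31, 13.37, 13.66 and 13.34 in 29M. The groups overlapped almost completely, with 29M-3 above every other array. The change was 0.03 ± 0.12 (SE), with an interval from -0.23 to 0.30 (limma, adjusted p = 0.929), and it was 0.21, 0.20 and -0.23 within the 3 slides.

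Txnip binds reduced thioredoxin and blocks it, so it works against the thioredoxin system, and it is strongly induced by glucose. Its window (250 bases before to 50 after the RefSeq start, chr3:96557707-96558006, plus strand, GRCm38.p6) is shown for the carbohydrate response element that it holds. The element was searched as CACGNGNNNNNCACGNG on both strands. Capitals mark the match, from base -85 to -69 counted from the start.
Txnip: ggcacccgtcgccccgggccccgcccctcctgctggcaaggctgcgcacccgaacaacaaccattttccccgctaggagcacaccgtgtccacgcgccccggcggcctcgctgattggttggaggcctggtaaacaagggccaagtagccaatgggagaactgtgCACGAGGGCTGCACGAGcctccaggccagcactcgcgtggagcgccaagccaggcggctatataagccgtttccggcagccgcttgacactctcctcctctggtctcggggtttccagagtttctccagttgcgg
The string is rare, found in 16 of 32851 windows (0.049%), and in no other member gene that had a window.

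The brighter Txnip probe (A_51_P438805) read 11.98, 11.75, 11.72 and 11.86 in 3M and 11.95, 11.93, 12.06 and 12.10 in 29M. Array 3M-1 lay among the old arrays and the other young arrays lay below all of them. The change was 0.19 ± 0.09 (SE, limma, adjusted p = 0.339), and 0.24 without 3M-1. The other probe (A_55_P2006255) read 8.50, 8.49, 8.68 and 8.65 in 3M and 8.99, 8.95, 8.68 and 8.69 in 29M. Its groups did not overlap, but 3M-3 and 29M-3 differed by less than 0.01. This change was 0.25 ± 0.10 (SE), with an interval from 0.02 to 0.47 (limma, adjusted p = 0.266). The probes agreed in direction and differed by 0.06 in their change (exact permutation p = 0.743, two-sided).

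Read by role, the superoxide step and glutathione synthesis had changes within 0.1 of zero. The peroxide step held both the positive Prdx6 probe and the negative Gpx4 value, and the quinone and haem step held the largest difference. For 13 of the 16 probes the 95% interval, taken for each probe on its own, lay within 0.5 of zero on both sides. The other 3 were Cat A_51_P191611, Nqo1 and Hmox1 A_51_P263965, for which a change of 0.5 was not excluded at this number of arrays. In 9 probes the change had the same sign within each of the 3 slides, positive in 6 and negative in 3. The share of all tested probes that did so was not counted, and slide 2 held only 3M-2 and 29M-2. Among the 9 were values near zero, such as Sod2 at -0.03 and Prdx6 A_52_P388359 at -0.04.

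**Figure D2:**
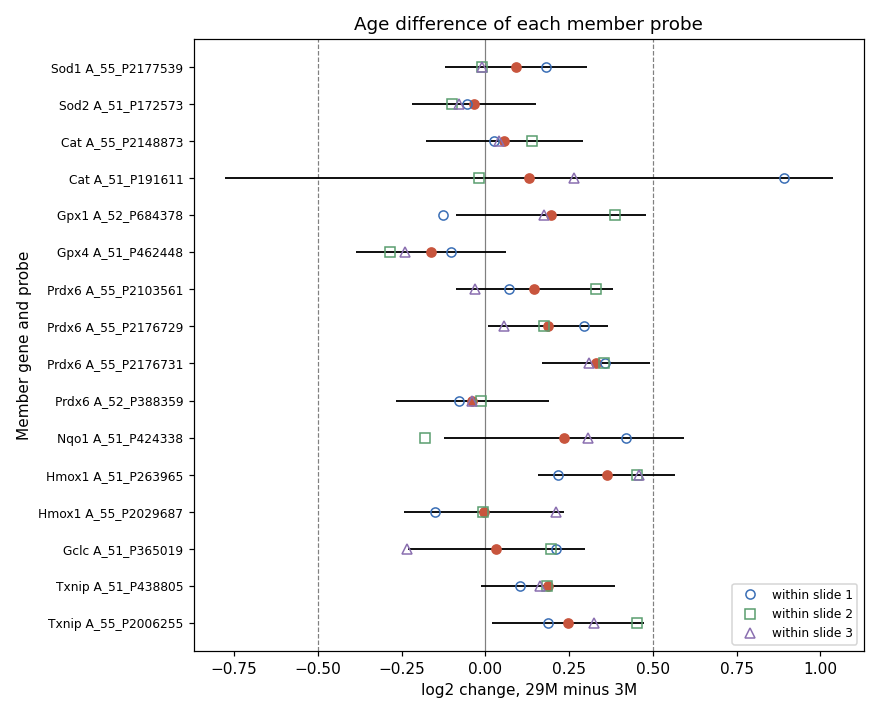
Log2 change (29M minus 3M) of each of the 16 probes, as filled points with 95% intervals, and the change within each slide as open symbols. Dashed lines mark the size of 0.5 needed for a call. No filled point reaches 0.5, and the open symbols of Prdx6 A_55_P2176731 lie together between 0.31 and 0.36.

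The wider pathway was read through 98 other genes in 9 lists, each gene by its probe with the highest mean intensity. Of these, 96 were tested, 2 were called higher (Maff and Cyba) and none was called lower, which is 2 of 96 beside 2.17% of all named genes. At an unadjusted p under 0.05 there were 22 of 96 genes, beside 16.5% of all named genes. The groups did not overlap for 18, beside 10.7% of all named genes. The changes were positive in 68 genes and negative in 28, with a median of 0.09 where the median of all named genes was 0.01.

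Maff, a small Maf protein that pairs with Nrf2 or Bach1, had the largest change of the lists. It read 8.48, 8.62, 8.89 and 8.61 in 3M and 9.50, 9.56, 9.33 and 9.72 in 29M. All old arrays exceeded all young ones. Maff rose by 0.88 ± 0.11 (SE) on the log2 scale, or 1.84-fold (limma, adjusted p = 0.00766), with 1.04, 0.93 and 0.75 within slides 1, 2 and 3, and it was called under all 18 alternatives. Of its relatives, Mafk had 0.12 (0.06 without 3M-1) and Mafg -0.28 (adjusted p = 0.133), and neither was called. Nfe2l2 itself had 0.33 (adjusted p = 0.377) and Keap1 -0.19, neither of them called. Within slides 1, 2 and 3 Nfe2l2 had -0.02, 0.44 and 0.38, and Keap1 had -0.54, 0.09 and 0.0073. Without 3M-1 Nfe2l2 had 0.46 and Keap1 -0.13. Nfe2l2 had 0.20 without 3M-3, and Keap1 had -0.11 without 29M-3. Sqstm1, an autophagy receptor that binds Keap1 and is also an Nrf2 target, was higher by 0.35 ± 0.09 with groups apart (limma, adjusted p = 0.0818), under the size for a call.

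Cyba, the p22phox subunit of the NADPH oxidases, is a source of superoxide and not a defence against it. It read 13.29, 12.70, 12.55 and 12.81 in 3M and 13.45, 13.56, 13.56 and 13.64 in 29M. The old arrays all lay above the young, with 3M-1 close below them. Cyba rose by 0.71 ± 0.15 (SE) on the log2 scale, or 1.64-fold (limma, adjusted p = 0.0503), with 0.30, 0.86 and 0.77 within the slides. The second Cyba probe (A_51_P131800) lay from 9.91 to 10.61 in 3M and from 10.63 to 10.71 in 29M, a change of 0.44 ± 0.14 that was not called (limma, adjusted p = 0.161). The call held in 11 of 18 alternatives. Among the settings that lost it were the fits without 3M-2, 3M-3, 3M-4, 29M-1, 29M-2 or 29M-4, while the change stayed between 0.62 and 0.87. Its partner Cybb, the catalytic gp91phox subunit found in phagocytes, had 0.63 ± 0.18 (adjusted p = 0.128).

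The 10 oxidant sources had the highest median of the lists, at 0.33, and 0.61 without 3M-1. In this list 3M-1 was the highest of all arrays for Xdh, Ncf1, Ncf4 and Rac2. Leaving it out therefore raises the change of these genes by construction. Without that array 10 pathway genes were called. These were Maff, Cyba, Cybb (0.78), Xdh (0.81), Ncf4 (0.73), Ncf1 (0.66), Slc7a11 (0.63), Rac2 (0.57) and Tkt (0.51), all higher, and Gpx2 (-0.59), lower. Calls over all probes rose as well, from 478 to 850 higher and from 279 to 536 lower. The share of all named genes called without 3M-1 was not counted. With any other single array left out, 1 to 3 pathway genes were called. Over all arrays Xdh had 0.45, Ncf1 0.43, Ncf4 0.41 and Rac2 0.019. Ncf1, Ncf4 and Rac2 are further parts of the phagocyte oxidase, and Xdh is xanthine dehydrogenase.

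Among glutathione peroxidases and transferases (18 genes, median 0.09) the largest changes had opposite signs. Gpx2 had -0.49 ± 0.17 (adjusted p = 0.182). Gstp1, which conjugates glutathione to electrophiles, had 0.49 ± 0.08 (limma, adjusted p = 0.019), from 15.62 to 15.85 in 3M and from 16.17 to 16.25 in 29M, and so fell just short of the size for a call. It was called under 4 of the alternatives, slide as a fixed block, array weights and without 3M-3 or 29M-3, at 0.51 to 0.54. For synthesis and recycling (12 genes, median 0.02), Slc7a11, the cystine importer, had 0.51 ± 0.18 (adjusted p = 0.205). Gclm and Gss, the enzymes beside Gclc, had 0.0089 and 0.03. Gsr, which recycles oxidised glutathione, had 0.43 ± 0.59, where 3M-1 lay at 9.26 and the other young arrays between 11.63 and 12.49. Without 3M-1 the sign of Gsr turned, to -0.27.

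Of the peroxiredoxin and thioredoxin system (13 genes, median 0.07), Arrdc4, a relative of Txnip that glucose also induces, had 0.48 ± 0.23 (adjusted p = 0.334). Array 29M-4 lay at 12.15 for Arrdc4, while the other old arrays lay between 11.01 and 11.14 and the young between 10.72 and 11.00. Without 29M-4 the change of Arrdc4 was 0.21, and its other probe (A_51_P111612) had -0.19. Prdx3, the mitochondrial peroxiredoxin, had 0.24 ± 0.56, again with 3M-1 low, at 10.47 beside 12.72 to 13.50, and it had -0.44 without that array. The median of the list then turned as well, to -0.043. The superoxide list held only Ccs (0.14), which loads copper into Sod1, and the extracellular Sod3 (0.08, and 0.04 without 3M-1).

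In the quinone, haem and methionine repair list (11 genes, median 0.11) the leading genes were Pon2 with 0.36 ± 0.10 (adjusted p = 0.104) and Msrb1 with 0.22. All 7 NADPH suppliers had positive changes (median 0.15), led by Tkt at 0.39 (adjusted p = 0.188) and G6pdx at 0.31 (adjusted p = 0.145), none of them called. For Idh1 the sign rested on 3M-1, with 0.06 over all arrays and -0.42 without it, and 6 of 7 were also positive without 29M-1 or 29M-2. Metallothioneins and selenoproteins (8 genes) had the single negative median, -0.04, which was 0.0091 without 3M-3. The metal-binding Mt2 had -0.41 ± 0.11 (adjusted p = 0.102) and Mt3 -0.37 ± 0.12 (adjusted p = 0.167), both with the groups apart.

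**Figure D3:**
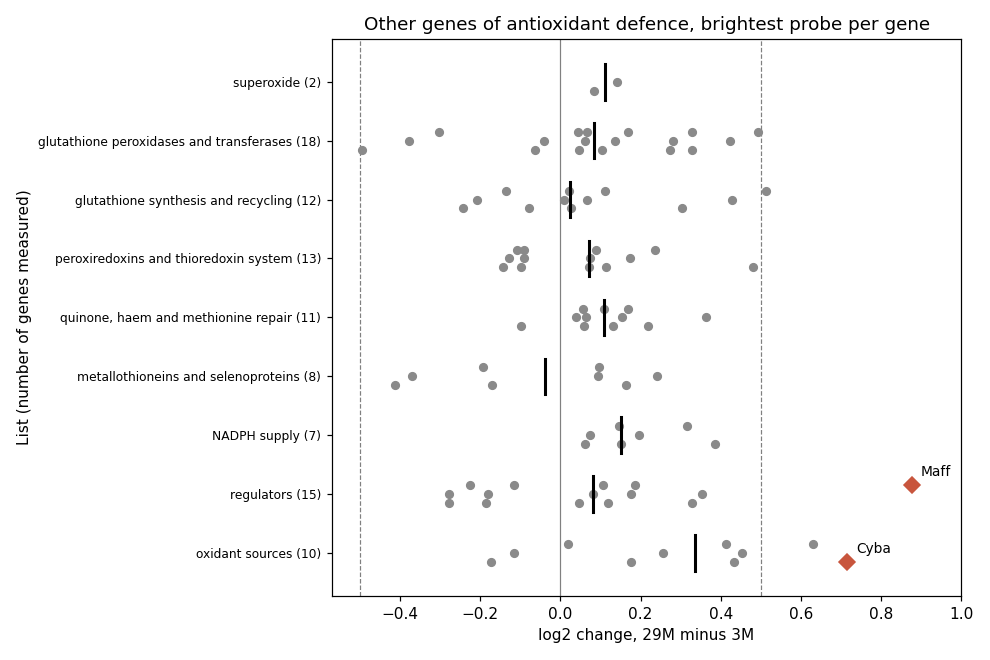
Log2 change (29M minus 3M) of the 96 other antioxidant pathway genes by list, 1 grey point a gene, with black bars at the list medians and dashed lines at the size of 0.5 needed for a call. The red diamonds are the called genes, Maff at 0.88 and Cyba at 0.71.

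The antioxidant response core TGACNNNGC was in the window of 23 of 84 pathway genes (27.4%), beside 14.0% of all genes with a window. Pathway genes with the core had a median change of 0.12 (16 positive and 7 negative) and those without it 0.07 (41 positive and 19 negative).

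Microglia markers are given beside Cyba and Hmox1, genes that microglia and other phagocytes express, although neither Hmox1 probe was called. Of 12 microglia markers 11 had positive changes and 5 were called higher, with a median of 0.43. C1qa, a subunit of complement C1q, rose by 0.87 ± 0.12 (SE, limma, adjusted p = 0.0115), and Tyrobp, a microglial signalling adaptor, rose by 0.81 ± 0.14 (adjusted p = 0.0285). All 12 were well above background on every array. The microglia score ran from -0.35 to -0.04 in 3M and from 0.07 to 0.36 in 29M, without overlap. The highest young array was 3M-1 for the score, Cyba and Hmox1, although Hmox1 read 11.09 in 3M-1 and 11.08 in 3M-4. The scores of 3M-1 and 3M-4 were -0.04 and -0.25. The lowest old array was 29M-4 for the score and for Hmox1, but this array was the highest for Cyba, at 13.64. The highest old array was 29M-3 for the score and 29M-1 for Hmox1. The part of microglia in the Hmox1 and Cyba values was not tested.

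**Figure D4:**
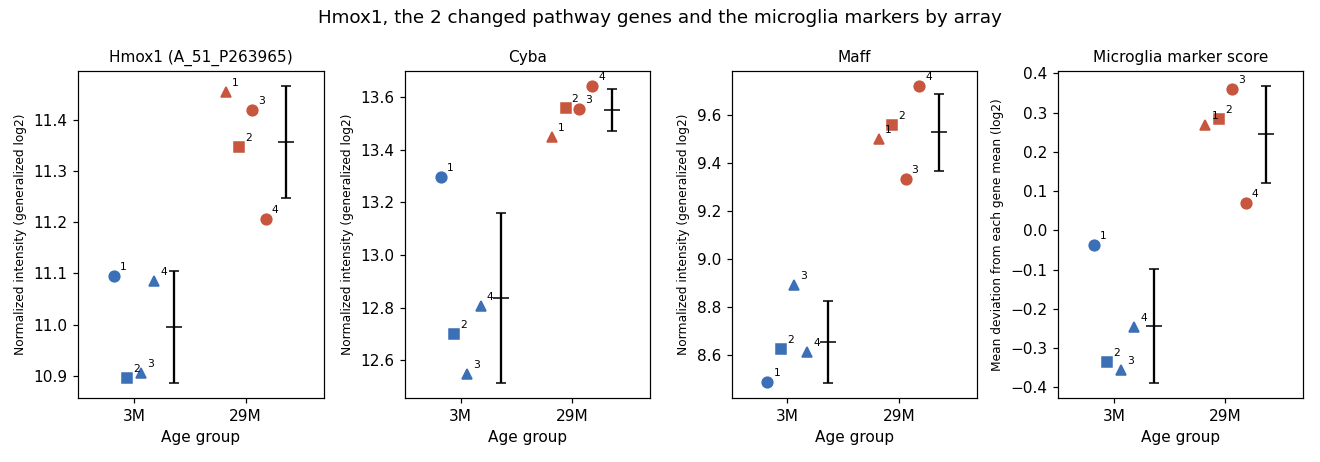
Normalized intensity (generalized log2) of Hmox1 A_51_P263965, Cyba and Maff, and the microglia marker score (mean log2 deviation of 12 markers), on each array of 3M and 29M, with replicate numbers beside the points and mean ± SD as bars. Marker shapes give the slides. Array 29M-4 is the lowest old array for Hmox1 and for the score, but the highest for Cyba and Maff.

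Since none of the 16 probes was called, the probe with the largest change, Hmox1 A_51_P263965, was set against all 20792 named probes well above background on all arrays. Over the 8 arrays the nearest were Wipf1 (Pearson r 0.978, log2 change 0.60), Ano10 (r 0.977, change 0.19) and Uts2r (r 0.976, change 0.12). With 8 arrays and so many candidates these are descriptions of likeness.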

How the data were processed

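The authors deposited the scanner output of each array, with linear spot intensities as read and no scaling across arrays. According to the file headers they came from Agilent Feature Extraction 10.7.3.1, a version other than the one in the study's methods. The deposited series table was not used: each of its 8 columns held the mean background of the spots of an array instead of expression (equal to within 0.001), and 7 of them that of another sample's array. Some of these crossed the ages. Columns 3M-2 and 3M-3 held the background of 29M-3 and 29M-4, and columns 29M-2 and 29M-3 that of 3M-4 and 3M-3. Ages here follow the sample under which each scanner file was deposited. Whether the table or the files carry the right labels was not tested. Control and outlier spots (127 to 190 an array) were left out and spots of a probe averaged. As in the study's methods, variance stabilising normalization (generalized log2, own implementation, trimming quantile 0.9, 7 iterations) was followed by a linear model, here on median intensities because mean ones were not at hand. Model, eBayes and Benjamini-Hochberg adjustment used limma 3.58.1 in R 4.3.3, with at least 3 usable arrays a group. On this scale changes of dim probes are understated. Arrays lay on 3 slides, each with both groups.

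Probes were named through their accession by RefSeq (GRCm38.p6), which matched 26055 of 39429 probes (66.1%). The gene names in the scanner files were not used, so a member probe without a matched accession would be missed. The arrays were designed on mm9, so only promoter windows carry coordinates, in the build of their table. The genes, lists and markers were chosen with earlier results of these data known. Named genes were all 10 members with every probe, called pathway genes, the 2 largest changes of each list among probes well above background in at least 1 group, and the 3 probes most like the leading member. Some other genes (such as Nfe2l2, Keap1, Gclm, Idh1, Mafg, Gfap, C1qa and those called without 1 array) were named after their values were seen. The test was checked on simulated data for 29M against 3M (39098 probes, 200 of them changed by 1.5 on the log2 scale): 97.5% were recovered and 8.88% of calls were false. The simulated size is above every change of the 16 member probes, and recovery at smaller sizes was not simulated. As alternatives, other background corrections and normalizations, filters, slide blocks, a replicate block, array weights and each array left out were run.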

Additional observations from a re-analysis of the deposited data

Results flagged for a closer look

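In 32 groups of 4 arrays (16 probes in both ages), a value was marked where its gap to the nearest other array as a share of the group's whole range exceeded Dixon's limit for 4 values, a limit that chance alone passes in about 1 of 20 groups, or 1.6 of 32. For Prdx6 A_55_P2176729 the array 3M-3 lay at 15.86 and the other 3M arrays between 15.72 and 15.74, a gap of 0.852 of the range. For Gclc A_51_P365019 the array 29M-3 lay at 13.66 and the other 29M arrays between 13.31 and 13.37, a gap of 0.836 of the range. Without 3M-3 or 29M-3 neither probe was called.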

How the results depend on the processing

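No probe of the 10 genes was called under any of 18 alternatives, and the median change of the 16 probes stayed between 0.08 and 0.16. The median of all probes stayed between -0.02 and 0.01. Of 288 single values 268 kept their sign. The 20 that turned, none called, belonged to 6 probes. On log2 processed signals Sod1 had -0.0013, Cat A_55_P2148873 -0.078, Prdx6 A_52_P388359 0.033 and Hmox1 A_55_P2029687 0.00068. Variance stabilisation of processed signals gave the last 3 values of -0.063, 0.046 and 0.016. Hmox1 A_55_P2029687 also had 0.020 with slide as a fixed block, 0.0012 with slide as a random block, 0.022 with array weights, and -0.063 to 0.075 with 1 array left out. With 1 array left out Cat A_51_P191611 ran from -0.28 (without 3M-1) to 0.40, with -0.011 without 29M-1 and -0.032 without 29M-2. Gclc ran from -0.047 (without 29M-3) to 0.086, with -0.040 without 3M-2, and Prdx6 A_52_P388359 from -0.11 to 0.029 (without 29M-4).

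Counts over the array moved more. Probes higher numbered 478, but 839 with array weights and 253 to 850 with 1 array left out, and probes lower 279, but 554 and 127 to 536. Pathway genes called numbered 2, but 9 with array weights and 1 to 10 with 1 array left out. Replicate numbers were not treated as pairs in the main test. The deviations of same-numbered arrays correlated at -0.27, 0.22, -0.21 and 0.08. Of these pairs only 3M-2 and 29M-2 shared a slide, so the few values cannot exclude a pairing. With the replicate block 285 probes were higher, 162 lower, and 1 pathway gene was called (Maff, while Cyba was lost). With 1 array left out the median also turned for the regulators (-0.04 without 3M-4) and for glutathione synthesis and recycling (-0.00092 without 3M-1, -0.012 without 29M-3). The causes were not tested. Signal over background limits dim probes, and 77.6% of tested probes were well above background on all arrays of at least 1 group.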
